A study of Citrus maxima and Citrus sinensis with 8 samples.

Results

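A set of 131 genes was taken from the 30297 gene IDs measured in citrus leaves, because their transcripts were lowered by aluminium in Citrus grandis while their mean level in Citrus sinensis stayed within 1.5-fold. The members were chosen on FPKM with 1 added. FPKM counts the sequenced fragments of a gene relative to its length and to the size of the library. The lower of the 2 C. grandis control libraries had to be at least 2 times the higher of the 2 C. grandis aluminium libraries. The mean of the C. sinensis aluminium libraries over the mean of the control libraries had to lie between 1/1.5 and 1.5. Mean FPKM had to be at least 1 over the 4 C. sinensis libraries and below 500 over all 8 libraries, which 15958 genes met, so that the members were 0.821% of these. The members' aluminium values in both species are therefore a description of how they were chosen.

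The groups were C. grandis seedlings given aluminium for 18 weeks, C. grandis control seedlings, C. sinensis seedlings given aluminium for 18 weeks, and C. sinensis control seedlings. C. grandis is pummelo, entered under its synonym Citrus maxima, and C. sinensis is sweet orange. Each group had 2 libraries, and each library came from a pool of leaves of 5 seedlings, grown 1 to a pot. The aluminium dose, the age of the seedlings and their cultivars were not given in the sources used here.

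Aluminium dissolves in acid soils and harms plants first at the root tip, where it binds to cell walls and membranes and stops growth. Leaves are reached later, through a poorer supply of water and minerals and through metal carried up in the xylem, and the usual signs there are less chlorophyll and weaker carbon fixation. Tolerant plants release organic acids that bind the metal or store it in vacuoles, and C. sinensis is regarded as more tolerant than C. grandis. The tables list gene IDs with no gene names, so no function can be given to any member, and the leaf origin could not be checked against marker genes. In pooled leaves, fewer cells of a type and less RNA per cell cannot be told apart.

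Library totals recovered from the FPKM ranged from 16443205 to 19794247 reads. The 131 members had a median of 340 reads in the C. grandis aluminium libraries together and 1142 reads in the control libraries together. The fewest control reads of any member were 40, and 5 members had fewer than 100 of them. The 2 replicates of C. grandis aluminium lay close to each other for the members, with a median ratio of FPKM + 1 of 1.06 and a highest of 1.41. That ratio was 1.16 at the median and at most 3.43 in C. grandis control, 1.33 and at most 14.1 in C. sinensis aluminium, and 1.12 and at most 8.97 in C. sinensis control. The C. sinensis aluminium libraries thus differed most between replicates for these genes. The C. grandis aluminium pair differed least, and whether its 2 libraries came from separate pools of seedlings was not tested.

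The falls in C. grandis were mostly moderate, and near-complete losses were few. The median member stood at 5.61 and 5.75 FPKM in the C. grandis aluminium libraries, against 17.9 and 19.9 FPKM in the control libraries. In C. sinensis the medians were 8.10 and 10.9 FPKM in aluminium libraries, against 10.3 and 10.9 FPKM in control libraries. The ratio of the C. grandis means of FPKM + 1, control over aluminium, ranged from 2.08 to 17.1 with a median of 2.65. It was below 3 in 82 members, at least 3 in 49, at least 5 in 11 and at least 10 in 4. Both C. grandis aluminium libraries were below 1 FPKM in 17 members, while no member was below 1 FPKM in any C. grandis control library.

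**Figure D1:**
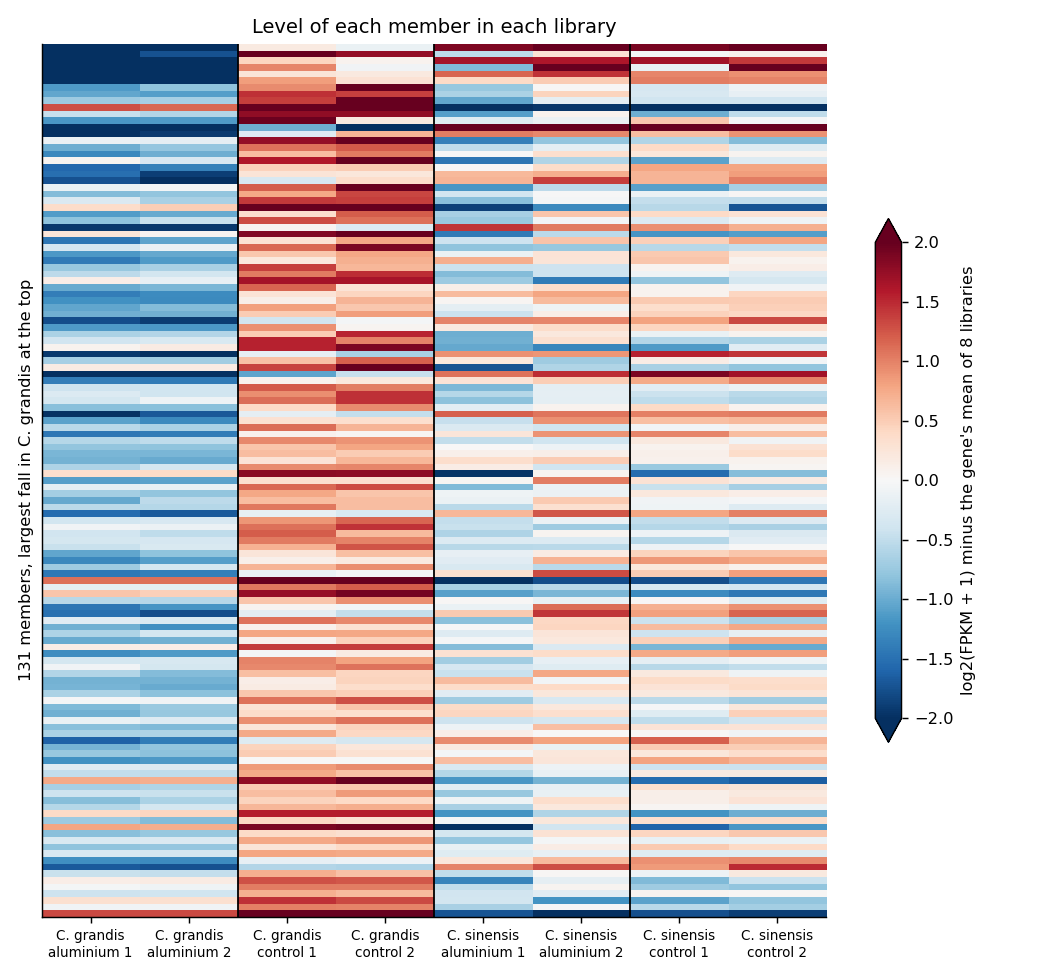
Each row is 1 of the 131 members, ordered by its fall in C. grandis with the largest at the top, and each column is 1 library. Colour gives log2(FPKM + 1) minus the gene's mean over the 8 libraries, cut at -2 and 2. The 2 C. grandis aluminium columns lie below the 2 C. grandis control columns in each row, as the choice of members required, while the C. sinensis columns stand above, below or between them from gene to gene.

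The largest fall was that of Cs5g23760. It had 0.0704 and 0 FPKM in C. grandis aluminium leaves, against 18.6 and 14.8 FPKM in C. grandis control leaves. In C. sinensis it had 61.7 and 78.7 FPKM with aluminium, against 63.6 and 72.2 FPKM in control. These C. grandis values rest on 2 reads in aluminium and 955 reads in control libraries, a control-over-aluminium ratio of 462 with an exact 95% counting interval of 128 to 3820. All 4 C. sinensis libraries stood above all 4 C. grandis libraries. Genes numbered next to it were also nearly without reads in C. grandis aluminium leaves, and whether the pools shared a genotype there was not tested.

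Cs5g19160 came next on the log2(FPKM + 1) scale. It had 0.855 and 1.31 FPKM in C. grandis aluminium leaves, against 35.8 and 25.2 FPKM in control leaves. Its 47 reads with aluminium and 1359 reads in control gave a control-over-aluminium ratio of 28.0, with an exact 95% counting interval of 20.9 to 38.3. In C. sinensis it had 4.38 and 8.46 FPKM with aluminium, against 6.59 and 7.27 FPKM in control. Here the C. grandis aluminium libraries stood below all C. sinensis libraries and the C. grandis control libraries above all of them. Intervals and floors of this kind describe counting error alone, because they pool the reads of both libraries of a group. The spread between libraries is left out, and PCR copies of a molecule are counted as separate reads.

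No read was found in either C. grandis aluminium library for 4 members, which were picked out after their values were seen. orange1.1t04258 had 0 reads there and 13.5 and 10.4 FPKM in C. grandis control, from 182 reads. Taking 3 reads over both libraries as the floor, its level with aluminium was at least 58.7-fold lower. That is more than the read ratio of Cs5g19160, whose fall was larger on the log2(FPKM + 1) scale. Cs9g06220 was at least 24.2-fold lower by the same floor, Cs5g23790 at least 17.1-fold and Cs5g23500 at least 12.9-fold. In C. sinensis orange1.1t04258 had 33.5 and 32.1 FPKM with aluminium, against 33.5 and 27.9 FPKM in control. All 4 genes were detected in every C. sinensis library, the lowest value being 1.01 FPKM, for Cs5g23500.

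The 2 most abundant members fell less steeply than these. Cs3g26630 had the highest mean over the 8 libraries, with 126 and 124 FPKM in C. grandis aluminium leaves, against 266 and 277 FPKM in control leaves. In C. sinensis it had 348 and 462 FPKM with aluminium, against 562 and 580 FPKM in control, so that both aluminium libraries lay below both controls there too. Its C. sinensis ratio of means of FPKM + 1 was 0.710, close to the lower limit of the choice. Cs4g09780 had 80.2 and 78.6 FPKM in C. grandis aluminium leaves, against 221 and 244 FPKM in control leaves. In C. sinensis it had 256 and 296 FPKM with aluminium, against 356 and 418 FPKM in control, a ratio of means of 0.713.

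At the threshold of 2 the set had no gap. Just inside stood Cs3g20290, whose lower control over higher aluminium FPKM + 1 in C. grandis was 2.0038, and Cs6g10920 at 2.0093. Just outside, with a C. sinensis ratio within 1.5, stood Cs7g28915 at 1.9965 and a gene outside the Cs and orange1.1t series at 1.9984. Of the 254 genes that met the level limits and the fall in C. grandis, 51.6% had a C. sinensis ratio within the limits and are the members. A further 80 genes (31.5%) had a ratio below 1/1.5, and 43 genes (16.9%) a ratio above 1.5. Over all 15958 genes within the level limits, 82.5% had a C. sinensis ratio within 1.5, 5.7% a lower and 11.9% a higher one.

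**Figure D2:**
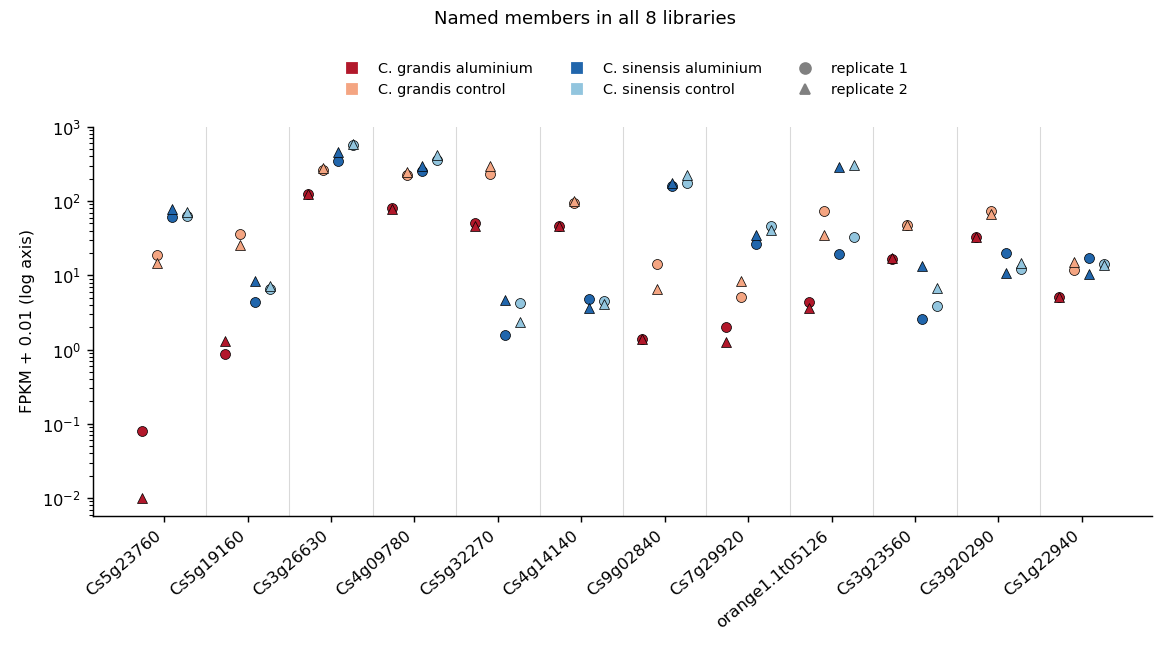
FPKM plus 0.01, on a log axis, of 12 members in all 8 libraries, with colour for the group and shape for the replicate. A point at 0.01 stands for 0 FPKM. For each gene both C. grandis aluminium points lie below both C. grandis control points, and the C. sinensis points lie apart in orange1.1t05126, where they run from 19.7 to 306 FPKM.

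Differences were fitted with limma on log2(FPKM + 1) over 16327 genes with a mean of at least 1 FPKM, all members among them. A gene was called at a Benjamini-Hochberg adjusted p below 0.05. Because the choice used the C. grandis contrast, the 123 of 131 members called lower there, against 9.7% of all genes tested, and the 0 called higher, against 6.41%, describe the choice and nothing further. The 8 members not called had log2 changes of -3.37 to -1.10. They include orange1.1t05126 and Cs3g23560, whose C. sinensis libraries were far apart and enter the same estimate of spread. With only the 4 C. grandis libraries in the fit, 120 members were called lower. Treating the 2 C. grandis aluminium libraries as 1 sample left 23, and leaving out replicate 1 or replicate 2 of C. grandis aluminium left 32 or 25. How far the aluminium effect differed between C. grandis and C. sinensis was also part of the choice. limma called that difference for 39 members (29.8%) with the lower effect in C. grandis, against 1.52% of all genes tested. It was called for 0 members with the higher effect there, against 0.796%. For the other 92 members a lower effect in C. grandis than in C. sinensis was not shown by that test. Without C. sinensis aluminium replicate 1 it was called for 98 members, and without C. sinensis control replicate 1 or 2 for 3 and 5. Without C. grandis aluminium replicate 1 or 2 it was called for 3 members each.

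In C. sinensis the members did not stand still in each library. The choice used only the mean of the 2 aluminium libraries, and the libraries differed. Replicate 1 lay below replicate 2 in 104 of 131 members (79.4%), and in 55.2% of all genes within the level limits. Replicate 1 lay below both controls in 93 members (71%), against 38.2% of those genes. It lay above both in 23 members (17.6%), against 47%. Replicate 2 lay below both controls in 41 members (31.3%), against 32.4% of those genes. It lay above both in 60 members (45.8%), against 53.2%. The median log2 distance from the control mean was -0.34 for replicate 1 and 0.06 for replicate 2 among members. Over all genes within the level limits it was 0.05 and 0.10.

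Replicate 1 was at least 1.5-fold under the C. sinensis control mean in 34 of 131 members and at least 2-fold under it in 6, on the scale of FPKM + 1. Over the 15958 genes within the level limits these counts were 1276 and 328, in each case a smaller share than among the members. Replicate 2 was at least 1.5-fold under the control mean in 6 members and 2-fold in 0. The 1016 and 213 of those genes with such falls were larger shares. Replicate 2 was at least 1.5-fold over that mean in 15 members, about the same share as the 1752 of the 15958 genes. In 40 members (30.5%) replicate 1 lay below both controls while replicate 2 lay above both, against 9.2% of the genes within the level limits. The reverse held for 5 members (3.8%), against 5% of those genes. These shares describe members whose mean ratio was limited by the choice, and they were not tested.

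orange1.1t05126 was the member whose C. sinensis aluminium libraries differed most. It had 19.7 FPKM in replicate 1 and 291 FPKM in replicate 2 of aluminium, against 33.2 and 306 FPKM in the 2 controls. In C. grandis it had 4.42 and 3.65 FPKM with aluminium, against 73.6 and 35.1 FPKM in control. Both C. sinensis groups thus held a low and a high library, and the ratio of their means, 0.916, came from libraries that were themselves about as far apart as the C. grandis groups.

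Cs3g23560 had 2.59 and 13.5 FPKM in C. sinensis aluminium leaves, against 3.81 and 6.74 FPKM in control, so that 1 aluminium library lay below both controls and the other above both. Its C. grandis libraries were close within each group, at 16.7 and 17.3 FPKM with aluminium, against 47.8 and 47.1 FPKM in control. In the other direction, Cs3g20290 had 20.2 FPKM in replicate 1 and 10.9 FPKM in replicate 2 of C. sinensis aluminium, against 11.97 and 14.8 FPKM in control. Cs1g22940 had 17.3 and 10.3 FPKM, against 14.2 and 14.0 FPKM in control. Only in the first of these 2 genes did C. grandis with aluminium, at 32.9 and 32.9 FPKM, stay above all 4 C. sinensis libraries.

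**Figure D3:**
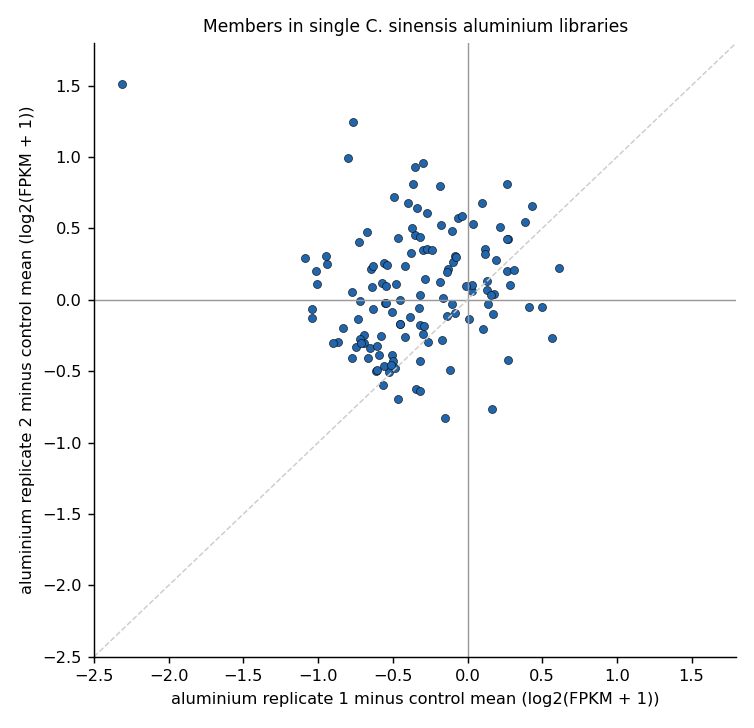
Each point is 1 of the 131 members, placed by its log2(FPKM + 1) in C. sinensis aluminium replicate 1 (x axis) and replicate 2 (y axis) minus the mean of the 2 C. sinensis controls. The dashed line marks equal values. Above that line lie 104 members, with orange1.1t05126 alone at the far upper left, at -2.31 and 1.51.

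In limma 1 member (0.763%) was called lower in C. sinensis, against 2.6% of all genes tested, and 0 were called higher, against 3.74%. At an unadjusted limma p below 0.05 the counts were 22 lower and 5 higher. Together these were 27 of 131 members, a smaller share than the 27.4% (4478 of 16327) of all genes tested in either direction. A fit with voom on recovered reads also called 1 lower and 0 higher. The member called was Cs6g13710, named after its values were seen, at 9.15 and 9.55 FPKM with aluminium, against 13.9 and 13.1 FPKM in control. Its C. grandis values were 6.46 and 6.76 FPKM with aluminium, against 15.8 and 16.2 FPKM in control. Both C. sinensis aluminium libraries lay below both controls in 34 members (26%), against 23.6% of all genes tested, and above both in 13 members (9.92%), against 37.2%. With libraries centred on their median, 8 members were called lower in C. sinensis. Without C. sinensis aluminium replicate 2 it was 15 lower, and without replicate 1 it was 7 higher. The choice limited the ratio of the C. sinensis means, so few calls there follow from it and do not test the label. The label of a fall in C. grandis alone describes the mean of the C. sinensis libraries, not each library. In 56 members each C. sinensis aluminium library was within 1.5-fold of each control, with Cs6g13710, called lower in C. sinensis, among them. Those 56 had a median fall in C. grandis of 2.60-fold, with a range of 2.08 to 17.1, and Cs5g23760 and orange1.1t04258 had the largest falls among them.

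The level of the members in C. grandis relative to C. sinensis was not part of the choice, although it shares libraries with it. Each member was placed by whether both libraries of a C. grandis group lay above, or both below, all 4 C. sinensis libraries. In 32 members (24.4%) the C. grandis aluminium libraries lay within the C. sinensis range or on both sides of a limit of it, and the control libraries above it. Cs7g22920, taken after its values were seen as the member with the largest fall of that kind, had 1.705 and 1.83 FPKM in C. grandis aluminium leaves, against 10.8 and 17.4 FPKM in control leaves. In C. sinensis it had 1.184 and 2.97 FPKM with aluminium, against 2.43 and 2.40 FPKM in control. Over all genes within the level limits 8.5% showed this arrangement.

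A further 32 members (24.4%) had aluminium libraries below the C. sinensis range and control libraries within it or on both sides of a limit, against 12.4% of all genes within the level limits. In 23 members (17.6%) the C. grandis libraries lay across the whole C. sinensis range, below it with aluminium and above it in control, as in Cs5g19160, against 1.0% of those genes. In 23 more (17.6%) both C. grandis groups stayed above the range, against 20.6%, and in 21 (16.0%) both stayed below it, against 20.7%. The choice of members fixes these shares in part, and they were not tested. Among the 80 genes with the same fall in C. grandis and a C. sinensis ratio below 1/1.5, the first arrangement held for 23.8%, the second for 48.8% and the crossing for 8.8%. Among the 43 with a ratio above 1.5, these shares were 32.6%, 11.6% and 2.3%. Without C. sinensis aluminium replicate 1, where the C. sinensis range could only narrow, the first count fell to 20 and the crossing members numbered 36.

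Cs5g32270 and Cs4g14140 had the largest differences over C. sinensis in control leaves. Cs5g32270 had 51.4 and 46.6 FPKM in C. grandis aluminium leaves, against 1.54 and 4.58 FPKM in C. sinensis aluminium leaves. In control leaves it had 233 and 297 FPKM in C. grandis, against 4.28 and 2.36 FPKM in C. sinensis. The log2 difference between the species in control leaves was 5.97 (SE 0.38, limma adjusted p = 7.56e-05), the highest of the members. Cs4g14140 had 46.1 and 45.9 FPKM in C. grandis aluminium leaves, against 4.72 and 3.62 FPKM in C. sinensis aluminium leaves. In control leaves it had 94.1 and 99.5 FPKM in C. grandis, against 4.54 and 4.12 FPKM in C. sinensis. The species differed there by 4.20 on the log2 scale, with an SE of 0.13 and a limma adjusted p of 9.53e-06.

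On the other side, Cs9g02840 had 1.39 and 1.40 FPKM in C. grandis aluminium leaves, against 157 and 173 FPKM in C. sinensis aluminium leaves. In control leaves it had 14.4 and 6.61 FPKM in C. grandis, against 174 and 221 FPKM in C. sinensis. The species differed there by -4.19 on the log2 scale, with an SE of 0.31 and a limma adjusted p of 0.000128. Cs7g29920 had 1.98 and 1.2498 FPKM in C. grandis aluminium leaves, against 26.3 and 34.7 FPKM in C. sinensis aluminium leaves. In control leaves it had 5.14 and 8.28 FPKM in C. grandis, against 46.2 and 40.1 FPKM in C. sinensis. The species differed there by -2.55 on the log2 scale, with an SE of 0.25 and a limma adjusted p of 0.000425. In each of these 4 genes the species did not overlap in either treatment, and the calls in control leaves held in all 15 alternatives. The tables use the same IDs for both species, and whether C. grandis reads were placed on them as fully as C. sinensis reads was not tested.

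**Figure D4:**
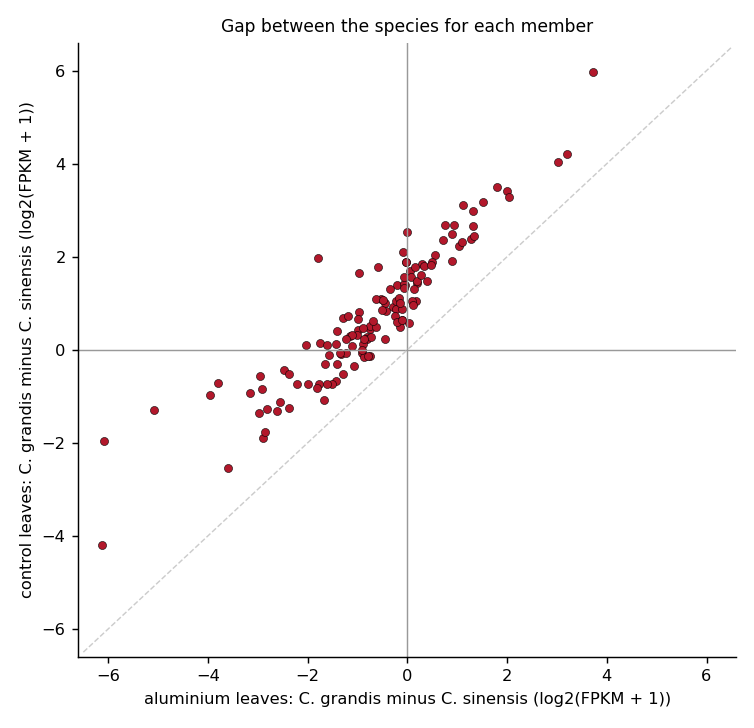
Each point is 1 of the 131 members, placed by the C. grandis minus C. sinensis difference of mean log2(FPKM + 1) in aluminium leaves (x axis) and in control leaves (y axis). The dashed line marks equal differences. All 131 points lie above that line, a placement that the choice of members largely fixed. The points run from -6.12 in aluminium leaves for Cs9g02840 to 5.97 in control leaves for Cs5g32270.

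Between aluminium leaves limma called 65 members (49.6%) lower in C. grandis, against 20.3% of all genes tested, and 17 (13%) higher, against 19%. Both C. grandis libraries lay below both C. sinensis libraries in 78 members (59.5%), against 37.2%, and above both in 25 (19.1%), against 39.6%. Between control leaves limma called 19 members (14.5%) lower in C. grandis, against 18.9%, and 65 (49.6%) higher, against 29.9%. There both C. grandis libraries lay below both C. sinensis libraries in 31 members (23.7%), against 29.4%, and above both in 83 (63.4%), against 47.7%. The median log2 difference of members was -0.64 in aluminium leaves and 0.65 in control leaves, where that of all genes was 0.03 and 0.17. Centring libraries on their median moved the difference of all genes in control leaves to -0.01 and that of members to 0.46. The members were chosen for high C. grandis controls and low C. grandis aluminium libraries, which moves these counts in the directions seen. The size of the gap, regardless of sign, had a median log2 value of 0.928 in aluminium leaves and 1.005 in control leaves. For 66 members (50.4%) it was smaller with aluminium than in control, against 56.8% of all genes within the level limits.

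Position in the numbering of the gene IDs was also not part of the choice. The Cs1g to Cs9g series held 112 members, 18 members had IDs beginning with orange1.1t, and 1 had an ID of another kind. The share of genes within the level limits that were members was highest in the Cs9g series, at 16 of 996 or 1.61% (exact 95% interval 0.921% to 2.6%). Among the Cs1g to Cs9g series it was lowest in Cs8g, at 5 of 1085 or 0.461% (0.150% to 1.07%), and these intervals overlap. Some members stood next to each other. Of the 260 places directly beside a member among genes within the level limits, 14 (5.38%) held another member, where 0.821% of all such genes were members. In 15 runs, members followed each other within 5 places, and these runs held 34 members. Neighbouring genes can be copies that share reads, which the files do not show.

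The longest run went from Cs9g12790 to Cs9g12890 and was picked out after its values were seen. It held 5 members among 8 genes within the level limits. All 8 had a negative log2 change in C. grandis, from -2.03 to -0.84, and limma called 7 of them lower. In C. sinensis all 8 were negative too, from -0.72 to -0.28, and limma called 0 of them. Cs9g12790 had 7.43 and 8.76 FPKM in C. grandis aluminium leaves, against 34.3 and 37.8 FPKM in control leaves. Cs9g12890 had 3.37 and 3.29 FPKM in C. grandis aluminium leaves, against 8.74 and 7.91 FPKM in control leaves. All 8 genes thus had the same sign in both species, and limma called the difference between the species for none of the 5 members.

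A second stretch, also picked out afterwards, ran from Cs5g23760 to Cs5g23790 and held 6 genes within the level limits, 2 of them members. Together the 6 had 13 reads in the C. grandis aluminium libraries and 1083 in the C. grandis control libraries. In C. sinensis they had 4727 reads with aluminium and 4773 in control. The 4 genes that were not members had 11 reads in C. grandis aluminium and 75 in C. grandis control, against 364 and 260 reads in C. sinensis aluminium and control. None of these 4 reached the fold of 2 on FPKM + 1. The next 3 genes within the level limits, up to Cs5g23850, had 1 read in C. grandis aluminium and 0 in C. grandis control, against 2237 and 1988 reads in C. sinensis aluminium and control. C. grandis aluminium leaves therefore had next to no reads over 9 genes within the level limits, and C. grandis control leaves had reads over the first 6 of them. Whether the aluminium and control pools of C. grandis had the same genotype at this stretch was not tested, so the values of Cs5g23760 and Cs5g23790 cannot be assigned to aluminium alone.

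**Figure D5:**
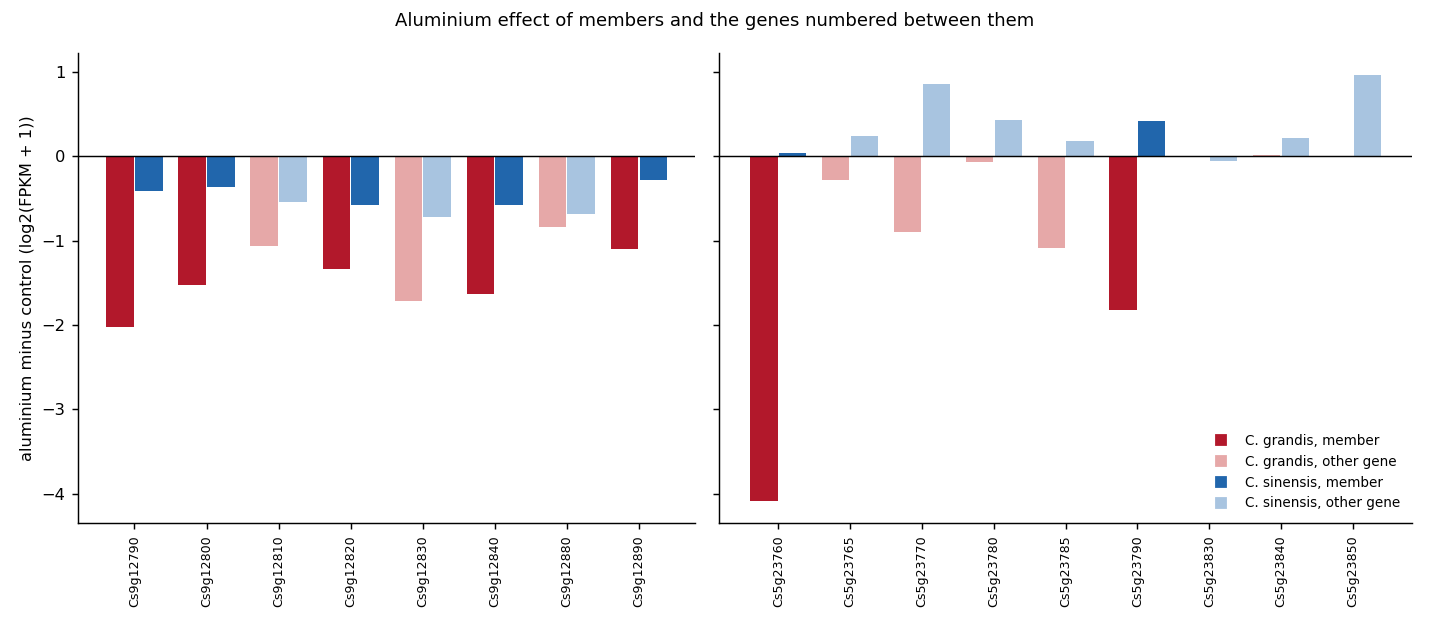
Bars give the aluminium minus control difference of mean log2(FPKM + 1) in C. grandis (red) and C. sinensis (blue) for each gene within the level limits, in the order of the numbering. Dark bars are members and pale bars other genes. Left, the 8 genes from Cs9g12790 are negative in both species, and right, the 6 genes from Cs5g23760 are negative in C. grandis and not in C. sinensis, while the last 3 have no C. grandis bar to speak of.

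Transcript length, recovered from the FPKM, had a median of 1650 bp in members and 1731 bp in all genes within the level limits, with members between 351 and 5120 bp. The median of the C. grandis control mean was 17.9 FPKM in members and 12.5 FPKM in all genes within the level limits.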

How the data were processed

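Leaf RNA was sequenced in 8 libraries, each from a pool of 5 seedlings, with 2 libraries per species and treatment. The authors deposited FPKM per gene and library in 1 table per group, per the file headers. Per the submitters' processing notes, edgeR 1.18.0, HTSeq, TopHat2 and Bowtie were used, in roles not stated. Neither genome build nor annotation is given in the sources used here. From the steps between FPKM values, read numbers, lengths and totals were worked out, within 0.01 of a whole number for 100% of the 22312 IDs above 0 in several libraries, and at least 99.93% of each total lay on genes. The recovery and the test were run on simulated reads with the same spread in every library. The replicates here differed in spread between groups, which that simulation does not cover.

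The planned gene lists could not be matched, because the IDs carry no names here. Members and lists were chosen with earlier results of these data known. limma 3.58.1 in R 4.3.3 was fitted to log2(FPKM + 1) of all 8 libraries, with a mean per group, a trend on expression and Benjamini-Hochberg adjustment over 16327 genes with a mean of at least 1 FPKM. P-values are two-sided and rest on the spread between the 2 libraries of each group. The mean chi-square per gene between replicates was 1.77 in C. grandis aluminium, 58.9 in C. grandis control, 82.7 in C. sinensis aluminium and 9.69 in C. sinensis control. The medians were 0.65, 6.21, 4.32 and 1.65 in that order, so the C. grandis aluminium pair lay closest to counting error. Whether the spread of that pair is one between separate pools of seedlings was not tested. All pairs were kept as 2 replicates.

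The rule for named members took at most 2 IDs per direction and description: the largest falls, the highest means, the largest differences between species in control leaves with a mean of at least 5 FPKM, the largest differences between C. sinensis aluminium replicates, and those beside the threshold. Alternatives changed the pseudocount, filter, scaling, replicates, libraries in the fit and the limits of the choice.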

Additional observations from a re-analysis of the deposited data

Results flagged for a closer look

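The aluminium effect differed between the species by limma's test of the difference for 39 members. The choice of members used both effects, so these calls describe it. Among the named members with that call, the log2 effect in C. grandis minus that in C. sinensis was -4.13 for Cs5g23760, -3.76 for Cs5g19160, -1.05 for Cs4g09780 and -1.01 for Cs4g14140. The call held in all 15 alternatives for Cs5g23760, in 10 for Cs5g19160, in 4 for Cs4g09780 and in 3 for Cs4g14140. In 13 members (9.92%) both C. sinensis aluminium libraries lay above both controls, against 37.2% of all genes tested. Both C. grandis aluminium libraries lay below both of theirs in every member, as the choice required. The difference in direction in those 13 was not tested as a set.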

How the results depend on the processing

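The number of members moved most with the limits of the choice. With a pseudocount of 0.1 or none in the choice there were 197 and 230 members, of which 118 and 116 were among the 131. The narrower band planned for the C. sinensis ratio left 81, a fold of 1.5 gave 530, a fold of 3 left 21, and 56 had every C. sinensis aluminium library within 1.5 times every control. Median centring gave 95, with 86 shared. Leaving out 1 library gave 113 to 336 members, the most without C. grandis control replicate 1 or 2 (336 and 292), where a fall had to hold against 1 control only.

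Of the 131, those called lower in C. grandis numbered 105 to 130 under the alternatives, except 23 when C. grandis aluminium counted as 1 sample, and 25 to 130 leaving out 1 library. Those called lower in C. sinensis numbered 0 with no filter, 8 with median centring, 3 with quantile normalization, 0 with the replicate block, 0 when C. grandis aluminium counted as 1 sample and 0 with C. sinensis alone, and 0 to 15 leaving out 1 library. Those called higher there numbered 0 to 7 leaving out 1 library. Calls for the difference numbered 23 with median centring, 22 with the replicate block and 3 when C. grandis aluminium counted as 1 sample, and 3 to 98 leaving out 1 library. Members called higher in C. grandis than in C. sinensis in aluminium leaves numbered 6 when C. grandis aluminium counted as 1 sample, and 6 to 21 leaving out 1 library. The other counts between species stayed within 1.5 times. The placement counts, recomputed without either C. sinensis aluminium replicate after seeing the data, were 20 to 22 for aluminium within and control above, and 28 to 36 for the crossing members. Leaving out a library can only narrow the C. sinensis range, so the number of crossing members could not fall. The cause of the other changes was not tested.

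Replicate numbers did not pair the libraries: deviations of same-numbered libraries correlated at -0.012 to 0.046 between groups across 16327 genes, and the replicate block called 120 members lower in C. grandis. Of 1001 values of named members under alternatives, 917 stayed on their side of the threshold, 67 lost a call and 17 gained one. A change of direction was counted only where either fit called the gene, and 0 values changed in that way. The 917 can therefore include uncalled values that changed direction. The lower bound of the counting interval of the fall was at least 1.999 in every member, which describes genes chosen for their fall. Genes with low C. grandis control levels could not reach a fold of 2 on FPKM + 1, whatever their fall.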

Other observations

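In all, 323 genes showed the fall of at least 2 times in C. grandis. Of these, 64 had a C. sinensis mean below 1 FPKM, 10 of them with no read in any C. sinensis library, and 5 had a mean of at least 500 FPKM. The same measure in the other direction, the lower aluminium library at least 2 times the higher control, was met by 707 genes. Among the 131 members, 39 had C. sinensis ratios of FPKM + 1 within 1.1-fold, and 77 had a ratio below 1 (58.8%), where 42.2% of all genes within the level limits and the 1.5-fold band did.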
